A study of Mus musculus with 48 samples.

Results

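The extracellular matrix genes of the nucleus accumbens examined here are 92 protein-coding genes chosen by name: the collagens, the laminins, the link proteins Hapln1 to Hapln4, the Adamts and Adamtsl proteases and relatives, and Acan, Bcan, Ncan, Vcan, Tnc, Tnr, Sparc, Sparcl1 and Reln. They make up 44 collagens, 11 laminins, 24 Adamts or Adamtsl genes and 13 genes of the brain matrix, out of 54838 gene identifiers measured. The data are counts of ribosome-associated mRNA from 48 libraries of mouse nucleus accumbens, the ventral part of the striatum. D1 libraries came from Drd1Cre x Rpl22HA mice and were labelled as Drd1 neurons, and D2 libraries came from A2ACre x Rpl22HA mice and were labelled as Drd2 neurons. In both lines Cre adds an HA tag to Rpl22, a protein of the ribosome, and an antibody to the tag then pulls down ribosomes with their mRNA from cells that have Cre. The Cre lines are named for the dopamine receptor gene Drd1 and for the adenosine receptor gene Adora2a. Males and females were on day 10 of fentanyl abstinence or were water controls, which gave 8 groups of 6 libraries, and fentanyl and water mice carried the same Cre and tag. Each library pooled 4 mice, with 4 tissue punches per mouse, so the spread between libraries is that between pools. The animals' age is not given in the sources used here.

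The extracellular matrix of the brain is built on hyaluronan, a long sugar chain to which the lecticans (aggrecan, brevican, neurocan and versican) bind, held there by the link proteins. Around some neurons, above all parvalbumin interneurons, tenascin-R ties these complexes into perineuronal nets, which limit synaptic change, and Adamts proteases cut the lecticans. A different matrix of laminins and type IV collagen forms the basement membrane of blood vessels, and fibrillar collagens fill the walls of larger vessels and the meninges. Reelin, a secreted glycoprotein, acts on neurons through lipoprotein receptors and Dab1.

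The libraries held 20211543 to 42584762 reads assigned to genes, with means of 27153238 in D1 and 32690424 in D2. Drd1 and Drd2 followed the labels. Drd1 averaged 480 CPM (reads of a gene scaled to a common library size) in D1 and 50.1 in D2, while Drd2 averaged 58.5 and 413 and Adora2a 108 and 945. Rpl22, the tagged gene, averaged 34.8 ± 6.28 CPM in D1 and 34.0 ± 2.59 in D2 (SD, n = 24 each), and its difference in water missed the threshold by edgeR's quasi-likelihood test (adjusted p = 0.176). The share of reads counted outside exons averaged 13.1% in D1 and 7.97% in D2, and its part in the differences below was not tested. Some D1 libraries stood apart from their group over all genes. The chi-square per gene between 2 libraries was 88.2 to 149.8 for D1 female water replicate 6 against its group and 7.55 to 22.0 among the other 5; that library also had the fewest reads in genes and the highest share outside exons (17.5%). D1 male fentanyl replicate 1 (31.7 to 45.9, and 9.26 to 13.6 among the others) and D1 female fentanyl replicate 5 (32.9 to 85.1, and 8.63 to 34.8) were also apart. D1 female fentanyl replicate 4 and D1 male water replicates 2 and 3 were apart less clearly, each with a median to the others 2.05 to 2.73 times that of the other pairs. Counts of members without all 6 of these libraries stand beside the main ones.

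Levels of different genes were compared per kilobase of exon. Sparcl1, an astrocyte-rich secreted glycoprotein that promotes synapses, led in both pull-downs with 89.6 ± 13.9 CPM per kb in D1 and 74.5 ± 11.7 in D2 (SD, n = 24 each), and its lowest library lay above the highest of the next gene in each. Ncan, the neural lectican neurocan, was the next in D1 with 18.0 ± 1.58 CPM per kb. In D2, Sparc with 29.4 ± 4.39 CPM per kb stood between Sparcl1 and Ncan, which had 20.4 ± 1.62, and the ranges of Sparc and Ncan overlapped. Below these the orders parted. In D1 came Hapln4 with 6.08, Col6a1 with 5.51, Col25a1 with 4.22 and Adamts3 with 3.87 CPM per kb, each overlapping its neighbour. In D2 came Bcan with 10.4, Col6a1 with 7.51 and Col9a2 with 3.595 CPM per kb, and the ranges of Bcan and Col6a1 overlapped while those of Col6a1 and Col9a2 did not. Summed over all 92 members the libraries held 837 ± 45.9 CPM in D1 and 862 ± 69.2 in D2, and the ranges of these sums overlapped.

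D1 and D2 libraries from water mice carried different matrix mRNAs. Of 75 members above the filter on low counts, 23 were higher and 28 lower in D1 by edgeR's quasi-likelihood test (adjusted p under 0.05, adjusted over 18270 genes). That is 68.0% of the members, where 53.4% of all genes tested were called (26.8% higher and 26.6% lower), so a difference between these pull-downs was common to most of the transcriptome. Without the 6 libraries that stood apart the counts were 20 and 29. A gene high in one pull-down can pass the filter through that pull-down alone, and its direction is then largely fixed. This held for 9 of the 75: Col1a1, Col3a1, Col5a2, Col5a3, Col6a5, Lamc3 and Tnc passed only through D2, and Col28a1 and Adamts19 only through D1. Over the 66 that passed in D1 libraries alone and in D2 libraries alone, 22 were higher and 23 lower, or 68.2%, beside 53.9% of the 16510 genes that did so (28.5% higher and 25.4% lower). The counts by family and role below are over these 66. The families split in direction: 10 Adamts and Adamtsl genes were higher and 2 lower of 19, 1 laminin was higher and 7 lower of 10, 5 collagens were higher and 8 lower of 25, and 6 brain matrix genes were higher and 6 lower of 12. The median log2 difference (D1 minus D2) was 0.35 for the Adamts genes, -0.80 for the laminins, -0.11 for the collagens and 0.01 for the brain matrix, beside 0.00 over all of those genes. In 16 of the 75 members the lowest library of one pull-down lay above the highest of the other, 7 with D1 above and 9 with D2 above, or 21.3% beside 12.8% of all genes (6.64% and 6.11% by direction). Among the 66 there were 14 such members, 7 each way, or 21.2% beside 12.8% (7.26% and 5.52%).

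**Figure D1:**
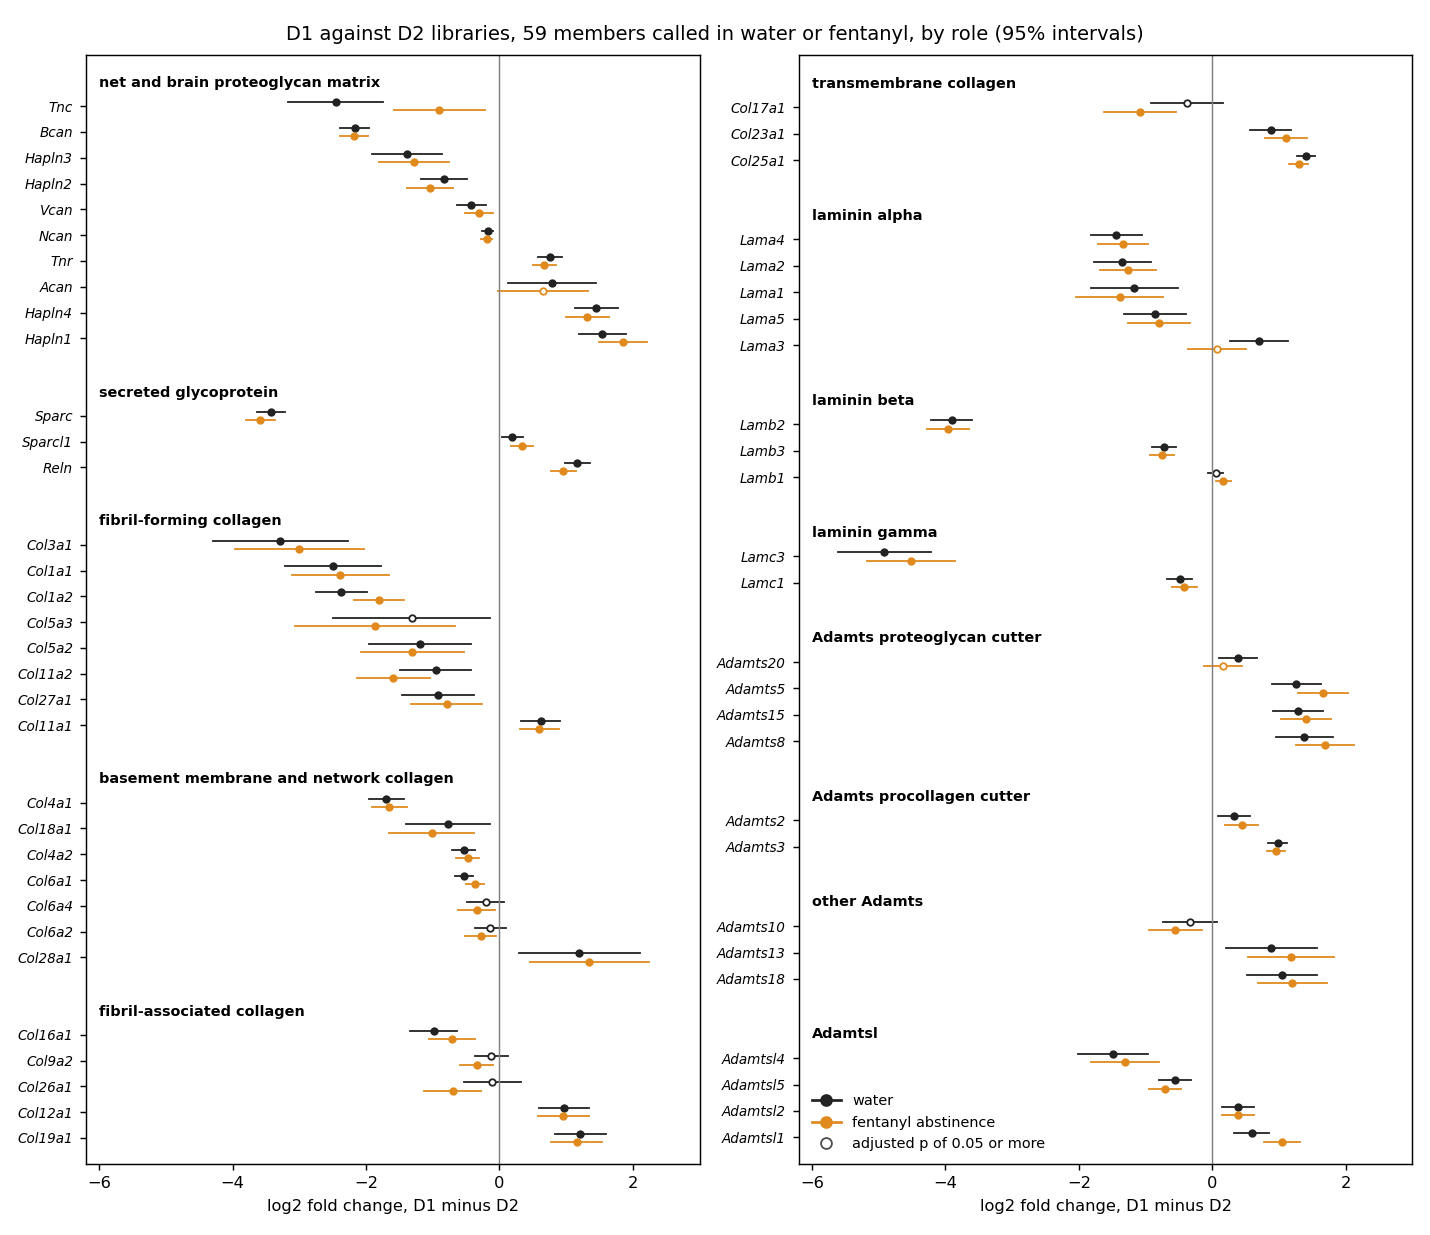
Each row is 1 of the 59 members called in water, in fentanyl or in both, grouped by role; points are log2 fold changes (D1 minus D2) with 95% intervals, black for water and orange for fentanyl abstinence, and open points have an adjusted p of 0.05 or more. Laminin and fibril-forming collagen points lie mostly left of 0, down to -4.92 for Lamc3 in water, one of the members drawn that passed the filter only through D2 (with Col1a1, Col3a1, Col5a2, Col5a3 and Tnc), and the Adamts proteoglycan cutters drawn lie right of it.

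Of the brain matrix genes higher in D1, Reln and the link proteins Hapln1 and Hapln4 stood out in size. Reln, in the adult cortex a product mainly of interneurons, had 67.1, 94.5 and 109 CPM as its lowest, median and highest value in the 12 D1 water libraries and 31.0, 39.2 and 57.2 in the 12 D2 water libraries. Every D1 library lay above every D2 library. The fold was 2.25 (log2 1.17 ± 0.10 SE, adjusted p = 1.17e-14). The 250 bases before the RefSeq starts of Reln and of Col25a1, a collagen higher in D1, are shown beside those of Bcan and Hapln3, which were lower in D1, so that upstream regions of genes that differed in opposite directions can be read against each other. All are from RefSeq on build GRCm38.p6, 5′ to 3′ on the gene's strand; capitals mark the GC box, GGGCGG or its reverse complement CCGCCC, and the TATA box, TATAAA or TTTATA, on either strand and with no overlap between the motifs. The regions are chr5:22344706-22344955 on the minus strand for Reln, chr3:130180595-130180844 on the plus strand for Col25a1 (inside a longer gene model of GENCODE M21 but in none of its exons), chr3:88000357-88000606 on the minus strand for Bcan and chr7:79131019-79131268 on the minus strand for Hapln3.
Reln: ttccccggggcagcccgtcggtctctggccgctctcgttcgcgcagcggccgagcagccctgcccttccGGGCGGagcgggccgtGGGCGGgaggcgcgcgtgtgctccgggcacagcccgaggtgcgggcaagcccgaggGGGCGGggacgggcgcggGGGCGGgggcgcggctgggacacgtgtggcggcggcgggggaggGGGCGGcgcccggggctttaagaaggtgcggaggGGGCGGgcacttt
Col25a1: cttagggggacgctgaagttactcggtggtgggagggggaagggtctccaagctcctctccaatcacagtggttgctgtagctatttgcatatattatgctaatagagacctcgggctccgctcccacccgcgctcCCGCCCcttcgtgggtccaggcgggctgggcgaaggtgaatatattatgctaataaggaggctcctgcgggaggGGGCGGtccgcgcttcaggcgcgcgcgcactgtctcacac
Bcan: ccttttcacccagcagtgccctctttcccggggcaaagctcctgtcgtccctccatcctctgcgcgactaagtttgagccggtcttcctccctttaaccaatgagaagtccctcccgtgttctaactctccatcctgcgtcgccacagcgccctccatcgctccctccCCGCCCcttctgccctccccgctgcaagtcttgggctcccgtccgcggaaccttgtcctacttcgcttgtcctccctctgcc
Hapln3: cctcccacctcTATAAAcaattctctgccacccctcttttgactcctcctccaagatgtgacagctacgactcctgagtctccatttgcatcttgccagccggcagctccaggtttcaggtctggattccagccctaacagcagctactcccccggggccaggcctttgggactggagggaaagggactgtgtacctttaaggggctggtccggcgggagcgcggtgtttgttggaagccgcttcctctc
Reln held 6 GC box matches and 37 CG pairs, Col25a1 2 matches and 18 pairs, Bcan 1 match and 16 pairs, and Hapln3 no GC box, 1 TATA box and 8 pairs. Over all 32851 windows of this length, 32.7% hold a GC box and 12.4% a TATA box, and the median window has 6 CG pairs. Of the 70 windows that belong to the 65 members found among them, 42 (60.0%) hold a GC box and 11 (15.7%) a TATA box. A match is a description of the letters, not a site.

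Hapln1, the link protein of cartilage and of perineuronal nets, had 2.02, 3.36 and 4.62 CPM (lowest, median, highest) in D1 water libraries and 0.568, 1.24 and 1.99 in D2. Hapln4, a brain-specific link protein of perineuronal nets, had 18.4, 24.1 and 31.6 CPM in D1 and 5.28, 7.54 and 13.8 in D2. For neither gene did a D1 library overlap a D2 library. Hapln1 was 2.91-fold higher in D1 (log2 1.54 ± 0.18 SE, adjusted p = 2.62e-10) and Hapln4 2.74-fold (log2 1.45 ± 0.16, adjusted p = 1.43e-10). Tnr, tenascin-R, the cross-linker of the nets, had 34.9, 37.6 and 66.4 CPM in D1 against 21.2, 25.1 and 28.5 in D2, again with no overlap, and was 1.69-fold higher (log2 0.76 ± 0.09, adjusted p = 5.00e-10). Acan, the lectican aggrecan that defines most nets, was low, with 0.305, 0.696 and 2.50 CPM in D1 and 0.181, 0.424 and 1.11 in D2. Its ranges overlapped widely, and its 1.73-fold difference only just passed (log2 0.79 ± 0.33, adjusted p = 0.0388). The Acan call was lost when any one of 12 water libraries was left out (D1 male replicates 1 and 6, D1 female replicates 1, 3 and 6, D2 male replicates 2, 3, 4 and 5, D2 female replicates 1, 2 and 6), with an adjusted p of 0.051 to 0.148. Sparcl1 was 1.14-fold higher in D1 (log2 0.19 ± 0.08, adjusted p = 0.0381), from 264.5 ± 48.9 CPM in D1 and 231 ± 32.9 in D2 (SD, n = 12 each by library). That call was lost without any one of 13 water libraries (D1 male replicates 2, 3 and 4, D1 female replicates 2, 3, 4 and 5, D2 male replicates 3, 4 and 5, D2 female replicates 2, 5 and 6), with an adjusted p of 0.052 to 0.146, and in females alone the log2 difference was 0.05.

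Sparc, the counter-adhesive glycoprotein of vessels and glia that binds collagen, showed the largest gap of the brain matrix genes. Its lowest, median and highest values were 6.77, 9.74 and 16.9 CPM in D1 water libraries and 78.2, 115 and 133 in D2. The ranges lay far apart, and the level was 10.8-fold lower in D1 (log2 -3.43 ± 0.11 SE, adjusted p = 2.68e-30). Bcan, brevican, a lectican of the adult brain made by astrocytes and oligodendrocyte precursors, had 7.63, 9.94 and 11.7 CPM in D1 and 30.2, 44.8 and 61.7 in D2. It was 4.51-fold lower in D1 with no overlap (log2 -2.17 ± 0.11, adjusted p = 9.45e-23). Tnc, tenascin-C, a glial protein of growth and injury, rested on few reads, with 0, 0.0788 and 0.357 CPM in D1 and 0.271, 0.682 and 1.79 in D2. It passed the filter only through D2, so its log2 difference of -2.45 ± 0.36 is given with no test. The libraries of Tnc overlapped, and 2 D1 water libraries held no Tnc read.

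The remaining link proteins and lecticans were lower in D1 by smaller amounts, and in each the libraries overlapped. Hapln3, a link protein of vascular smooth muscle, was 2.62-fold lower (log2 -1.39 ± 0.26, adjusted p = 1.37e-05; 0.647 ± 0.468 CPM in D1 and 1.67 ± 0.508 in D2). Hapln2, the link protein of nodes of Ranvier, was 1.78-fold lower (log2 -0.83 ± 0.17, adjusted p = 4.74e-05; 1.254 ± 0.439 and 2.27 ± 0.538 CPM). Vcan, versican, was 1.34-fold lower (log2 -0.42 ± 0.11, adjusted p = 0.000724). Ncan, the most abundant lectican in both pull-downs, was 1.13-fold lower (log2 -0.18 ± 0.04, adjusted p = 0.000388), from 132 ± 11.5 CPM in D1 and 150 ± 14.5 in D2 (SDs over 12 libraries each).

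**Figure D2:**
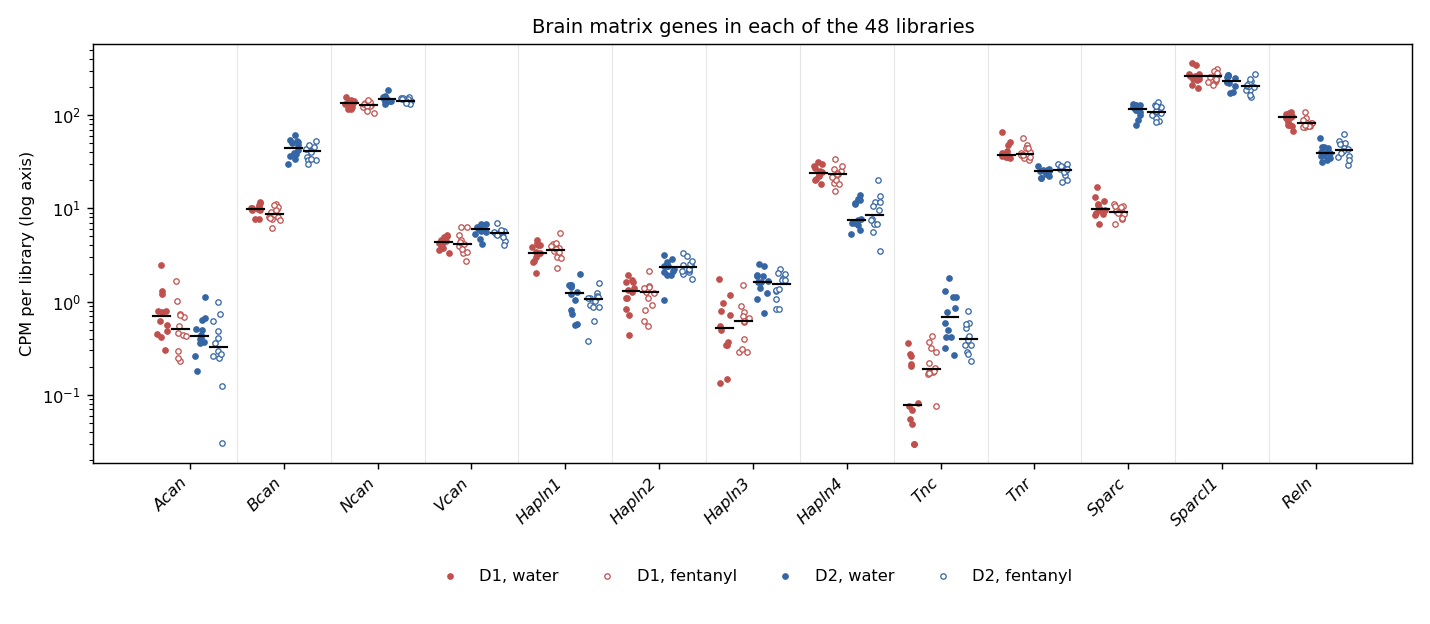
CPM (log axis) of the 13 brain matrix genes in every library, red for D1 and blue for D2, filled for water and open for fentanyl abstinence; bars are medians of 12 libraries, and libraries under 0.03 CPM are drawn at 0.03. Bcan and Sparc sit lower in every D1 library than in any D2 library and Reln, Hapln1 and Tnr higher within each treatment, while the water and fentanyl columns of one pull-down overlap for every gene.

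Each lectican gene lies beside a link protein gene in the mouse genome, so the pairs can be set side by side (GRCm38, GENCODE M21). Vcan (chromosome 13, 89655312 to 89742509, minus strand) lies 43659 bases from Hapln1 (89539796 to 89611652, plus strand), with log2 differences in water of -0.42 and 1.54. Ncan (chromosome 8, 70093085 to 70120873, minus strand) lies 2222 bases from Hapln4 (70083457 to 70090862, plus strand), with -0.18 and 1.45. Acan (chromosome 7, 79053483 to 79115099, plus strand) ends 2 bases short of Hapln3 (79115102 to 79131018, minus strand), with 0.79 and -1.39. In these 3 pairs the lectican and its neighbour were called in opposite directions in water. For Acan and Hapln3 this rests on the weak Acan call. That call was lost without any one of 12 water libraries and was not made in fentanyl (adjusted p = 0.0977 by edgeR). In the other pair, Bcan (chromosome 3, 87987531 to 88000230, minus strand) and Hapln2 (88021750 to 88027583, minus strand) lie 21519 bases apart and were both lower in D1, by log2 -2.17 and -0.83. Whether reads were counted by strand is not given in the sources used here, so reads between the ends of Acan and Hapln3 are less certain.

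The collagen calls differed in direction by role. Counts by role or list in water, here and below, stand beside 53.9% of all genes that passed in both pull-downs (28.5% higher and 25.4% lower). Of the 5 fibril-forming collagens that passed the filter in both pull-downs, 3 were lower (Col1a2, Col11a2 and Col27a1) and 1 higher. Col1a2, a chain of type I collagen, had 0.481, 0.956 and 1.69 CPM in D1 water libraries and 3.31, 5.92 and 7.58 in D2, with no overlap, and was 5.17-fold lower in D1 (log2 -2.37 ± 0.19 SE, adjusted p = 8.99e-15). Col1a1 and Col3a1 lie outside the rule for naming genes and are given because Col1a1 is the partner of Col1a2 in type I fibrils and Col3a1 a main fibril of vessel walls, a choice made after their values were seen. Both passed the filter only through D2 and are described with no test. Col1a1 averaged 0.196 CPM in D1 and 1.14 in D2 (log2 -2.49 ± 0.36), and Col3a1 0.0747 and 0.813 (log2 -3.29 ± 0.50), with 5 of 12 D1 libraries at 0 for Col3a1. The fibril-forming exception was Col11a1, 1.53-fold higher in D1 (log2 0.62 ± 0.14, adjusted p = 0.000333).

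Of the 8 basement membrane and network collagens that passed in both, 4 were lower and none higher by edgeR. Col4a1 and Col4a2, the chains that make up most of the type IV network, overlap by 22 bases on opposite strands of chromosome 8 (11198423 to 11312826 and 11312805 to 11449287). Col4a1 had 1.56, 2.50 and 3.38 CPM in D1 and 5.74, 7.93 and 10.9 in D2, with no overlap, while Col4a2 had 7.49, 9.17 and 11.7 against 10.1, 13.5 and 16.1, with overlap. Col4a1 was 3.24-fold lower in D1 (log2 -1.70 ± 0.13, adjusted p = 1.62e-15) and Col4a2 1.45-fold (log2 -0.53 ± 0.08, adjusted p = 5.92e-07). Col6a1, a chain of the microfibrils that sit beside basement membranes, had 17.4, 23.9 and 28.2 CPM in D1 and 29.3, 33.5 and 37.6 in D2 and was 1.44-fold lower (log2 -0.52 ± 0.07, adjusted p = 4.56e-09).

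Of 3 transmembrane collagens tested 2 were higher in D1 and none lower by edgeR, and of 9 fibril-associated collagens 2 were higher and 1 lower. Col25a1, the transmembrane collagen first found in amyloid plaques and needed by motor axons to enter muscle, had 45.03, 54.2 and 74.4 CPM in D1 water libraries and 17.6, 20.95 and 27.1 in D2. No library overlapped, and the fold was 2.65 (log2 1.41 ± 0.07 SE, adjusted p = 1.06e-22). Col19a1, a fibril-associated collagen that subsets of interneurons make in mouse visual system and cortex, was 2.32-fold higher without overlap (log2 1.21 ± 0.19, adjusted p = 5.13e-07; 3.86 ± 0.954 CPM in D1 and 1.66 ± 0.480 in D2, SD). Col12a1, also fibril-associated, was 1.95-fold higher (log2 0.97 ± 0.19, adjusted p = 2.31e-05) and the transmembrane collagen Col23a1 1.83-fold (log2 0.87 ± 0.15, adjusted p = 4.66e-06). The fibril-associated collagen lower in D1 was Col16a1, by 1.98-fold (log2 -0.99 ± 0.18, adjusted p = 6.05e-06).

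Laminins are trimers of an alpha, a beta and a gamma chain, and chains of each kind were lower in D1. Lamb2, the beta chain of vascular and synaptic laminins, had 0.250, 0.463 and 0.691 CPM in D1 water libraries and 5.83, 7.31 and 8.41 in D2. It was 14.99-fold lower in D1 (log2 -3.91 ± 0.15 SE, adjusted p = 4.43e-26). Lamc3, a gamma chain, had 0, 0.0559 and 0.332 CPM in D1, where 5 of 12 libraries had no read, and 1.504, 2.52 and 3.00 in D2. It passed the filter only through D2, and its log2 difference of -4.92 ± 0.34 is given with no test. Lamc1, the gamma chain of most laminins, passed in both and was 1.40-fold lower (log2 -0.49 ± 0.09, adjusted p = 1.27e-05; 9.54 ± 2.30 CPM in D1 and 13.4 ± 1.35 in D2), a gene named after its values were seen. Lama4, the alpha chain of endothelial basement membrane, was 2.71-fold lower (log2 -1.44 ± 0.19, adjusted p = 6.84e-09), and Lama2, the alpha chain of astrocyte and pericyte laminin, 2.55-fold (log2 -1.35 ± 0.21, adjusted p = 4.38e-07). Lama5 was 1.82-fold lower (log2 -0.86 ± 0.23, adjusted p = 0.00139) and Lamb3, a chain best known from skin, 1.65-fold with no overlap (log2 -0.73 ± 0.09, adjusted p = 2.34e-09). Lamb1, the most abundant laminin per kilobase, did not pass, with 35.0 ± 4.68 CPM in D1 and 33.7 ± 2.36 in D2 (SD), and its 95% interval ran from -0.06 to 0.16 on the log2 scale.

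The calls among the proteases that cut lecticans or trim procollagen were all toward D1. Of 7 Adamts proteoglycan cutters tested 4 were higher and none lower by edgeR, and both procollagen cutters tested were higher. Among all genes that passed in both pull-downs, 28.5% were higher and 25.4% lower. Adamts3, a procollagen peptidase that also inactivates reelin, had 16.9, 20.6 and 25.5 CPM in D1 water libraries and 8.48, 10.3 and 12.2 in D2, with no overlap and a fold of 1.97 (log2 0.98 ± 0.07 SE, adjusted p = 1.18e-16). Adamts2, its relative, named after its values were seen, was 1.254-fold higher (log2 0.33 ± 0.12, adjusted p = 0.0205), a call lost in each sex alone. The aggrecanase Adamts5 was 2.39-fold higher (log2 1.26 ± 0.18, adjusted p = 9.53e-08), from 2.94 ± 0.829 CPM in D1 and 1.24 ± 0.451 in D2 (SDs over libraries). Its chromosome 16 neighbour Adamts1, 53059 bases away, did not pass (log2 0.19, 95% interval -0.22 to 0.60). Adamts8 was 2.61-fold higher (log2 1.38 ± 0.21, adjusted p = 3.35e-07) and Adamts15, 20109 bases from it on chromosome 9, 2.43-fold (log2 1.28 ± 0.18, adjusted p = 7.74e-08). Adamts8 shares 8.59% of its 50-base stretches with other genes, so its count is less certain than that of the others named. Adamts20 was 1.31-fold higher (log2 0.39 ± 0.14, adjusted p = 0.0175), a call lost without D1 male replicate 6 (adjusted p = 0.0546) or D1 female replicate 4 (adjusted p = 0.0531). It was also lost in males alone (adjusted p = 0.138 by edgeR) and in females alone (0.0973). Adamts4, the other main aggrecanase, showed 4.97 ± 0.836 CPM in D1 and 4.93 ± 1.102 in D2, with a 95% interval from -0.29 to 0.31.

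The Adamtsl genes, which resemble Adamts enzymes but lack the protease domain, split evenly. Adamtsl1 was 1.51-fold higher in D1 (log2 0.59 ± 0.13, adjusted p = 0.000179) and Adamtsl2, named after its values were seen, 1.30-fold higher (log2 0.38 ± 0.12, adjusted p = 0.0066). Adamtsl5 was 1.48-fold lower (log2 -0.56 ± 0.12, adjusted p = 9.18e-05). The other gene lower in D1, Adamtsl4, averaged under 1 CPM in either pull-down and is named here after its values were seen (0.323 ± 0.195 and 0.908 ± 0.337 CPM, adjusted p = 3.45e-06).

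**Figure D3:**
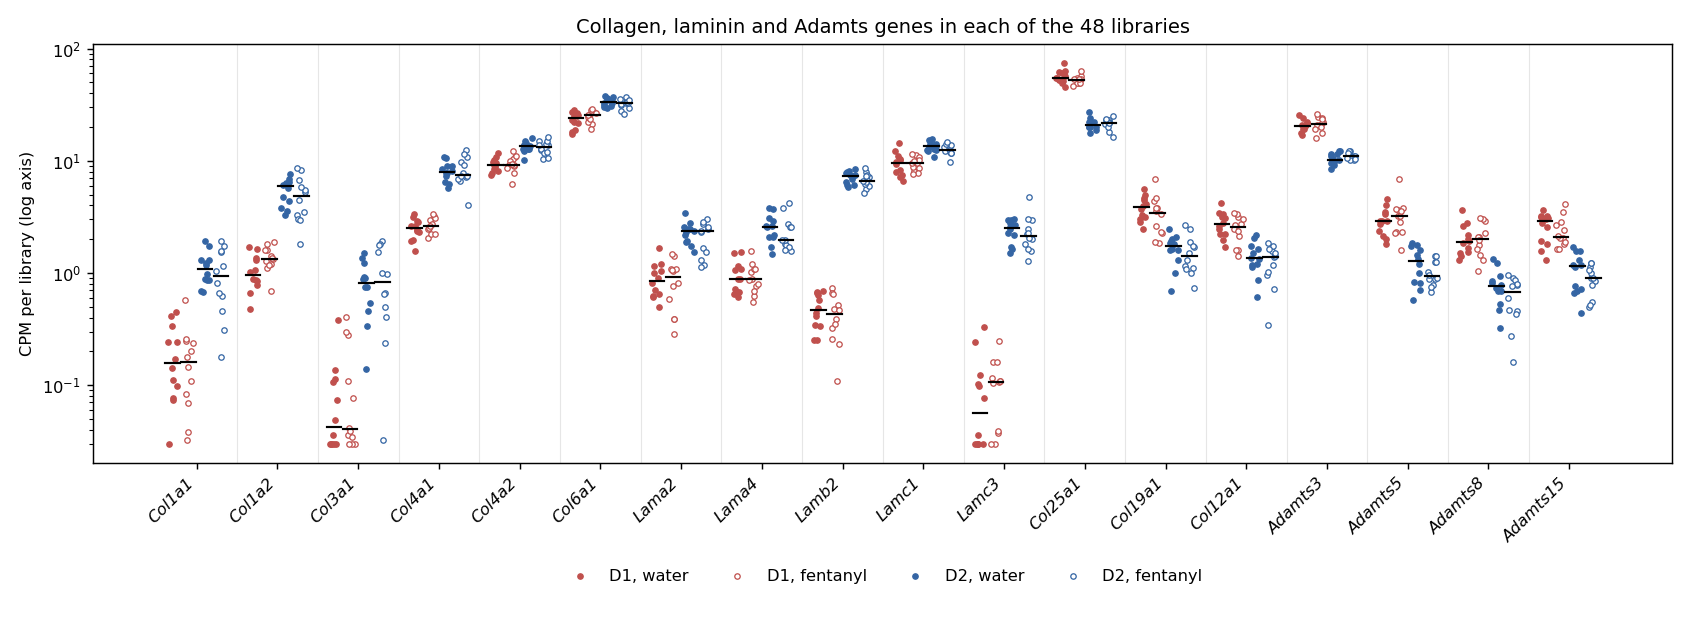
CPM (log axis) of 18 collagen, laminin and Adamts genes in every library, coloured as for the brain matrix genes; bars are medians of 12 libraries, and libraries under 0.03 CPM are drawn at 0.03. The medians of the genes from Col1a1 to Lamc3 are lower in D1 and those from Col25a1 to Adamts15 higher, in water and in fentanyl columns. Col1a1 and Lamc3 passed the filter only through D2.

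In bulk pull-downs, fewer cells of a type and less RNA per cell cannot be told apart, and markers of several cell types differed between D1 and D2 along with the matrix genes. Each pull-down also came from its own mouse line, so line and labelled cell cannot be told apart either. All 48 libraries were pull-downs, so levels in the whole tissue are not known. Endothelial markers were lower in D1 in 6 of 6 genes, with a summed level of 10.8 to 26.1 CPM in D1 and 169 to 277 in D2. All 7 markers of pericytes and smooth muscle were lower, with sums of 4.25 to 9.78 CPM and 129 to 340, led by Vtn with 1.34 CPM in D1 and 132 in D2. Of 6 markers of vascular and meningeal fibroblasts 5 were tested and lower, with sums of 1.11 to 3.602 and 4.68 to 25.6 CPM, and Dpep1 was at 0 in every D1 library. Of these markers 6 endothelial, 4 pericyte and smooth muscle and 2 fibroblast genes passed the filter in both pull-downs. The others tested (Abcc9, Acta2, Kcnj8, Lum, Slc22a6 and Slc6a13) passed only through D2, so their direction was largely fixed and adds no support. The 3 fibril-forming collagens and 7 laminins that passed in both and were lower, with Col4a1, Sparc and Hapln3, moved in the same direction as the vascular lists, whose part in the result was not tested. Astrocyte markers were lower in 6 of 7 genes, but the sums overlapped (208 to 471 and 293 to 612 CPM) and Slc1a2, which holds most of the sum, averaged 265.5 CPM in D1 libraries and 285 in D2 ones. Oligodendrocyte markers were lower in 6 of 6 (291 to 456 and 584 to 867 CPM), microglial markers in 6 of 6 (7.17 to 12.9 and 12.5 to 36.7 CPM), and of 5 oligodendrocyte precursor markers 3 were lower and 1 higher (26.8 to 38.9 and 32.5 to 43.4 CPM). Pdgfra stands on both the precursor and the fibroblast list. Bcan, Hapln2 and Sparc moved with these glial lists, whose part was not tested. Not every glia-rich member did so: Sparcl1, described above as astrocyte-rich, went the other way (log2 0.19 in water and 0.34 in fentanyl).

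Interneuron and excitatory markers went the other way. Of 5 listed markers of parvalbumin interneurons, the cells most often wrapped in nets, 4 were tested and higher in D1 (sums of 121 to 187 and 67.6 to 78.7 CPM), and Pvalb itself averaged 22.7 CPM in D1 and 1.61 in D2. All 6 markers of Sst, Npy and Vip interneurons were higher (713 to 1722 and 221 to 603 CPM), as were 5 of 5 of cholinergic interneurons (4 of which passed the filter in both pull-downs; 5.24 to 19.2 and 1.07 to 3.21 CPM) and 6 of 6 of excitatory neurons of the pallium, such as Slc17a7 (383 to 879 and 101 to 627 CPM). The cholinergic marker Slc18a3 passed only through D1, so its direction was largely fixed. Hapln1, Hapln4, Acan, Tnr, Reln, Adamts5, Adamts8 and Adamts15 moved in the same direction as these lists, whose part in the result was not tested. Of the lists for the labelled cells, 5 of 5 D1 markers were higher in D1 (2506 to 3659 and 474 to 688 CPM) and 4 of the 5 D2 markers were tested and lower (1462 to 3871 and 15110 to 22270 CPM).

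**Figure D4:**
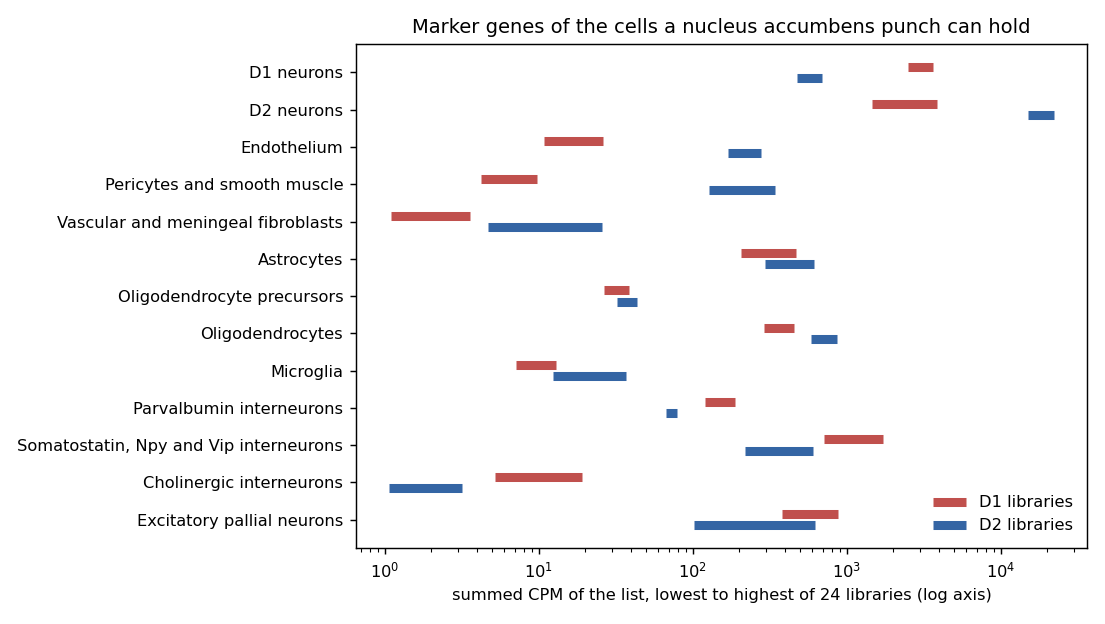
Bars run from the lowest to the highest of 24 libraries in the summed CPM (log axis) of each marker list, red for D1 and blue for D2. The vascular lists do not overlap, with D1 lower, and the parvalbumin and cholinergic lists do not overlap, with D1 higher.

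Other genes that make, bind or remodel the matrix are given from lists, with mean CPM over the 24 libraries of D1 and of D2 and the log2 difference in water. Of the 16510 genes that passed the filter in both pull-downs 53.9% were called in water (28.5% higher and 25.4% lower). Counts near that share are not read as a trait of a list. Of 10 genes for collagen and elastin making that passed the filter in both pull-downs none was higher and 7 were lower in D1 by edgeR. The largest differences among them were those of Serpinh1, a collagen chaperone (0.396 and 10.2 CPM, log2 -4.60), and Pcolce, an enhancer of procollagen cutting (0.288 and 4.26 CPM, log2 -3.88), both called again in fentanyl libraries. The prolyl hydroxylase P4ha1 was the most abundant of the 7 and differed least of them (56.8 and 59.4 CPM, log2 -0.12), and it was not called in fentanyl (log2 0.00, adjusted p = 0.997 by edgeR). Of 10 laminin and collagen receptors 7 were lower and 1 higher, among them Ddr1, a collagen receptor kinase (28.8 and 39.5 CPM, log2 -0.47), while dystroglycan, Dag1, did not pass (81.6 and 81.4 CPM, log2 0.00). Of 3 basement membrane partners that passed in both 2 were lower and Agrn, agrin, was higher (59.0 and 54.8 CPM, log2 0.13), a call not made in fentanyl (log2 0.08, adjusted p = 0.246 by edgeR). The reelin receptors Vldlr (142 and 125 CPM, log2 0.18) and Lrp8 (24.6 and 17.4 CPM, log2 0.45) were higher in D1, while Dab1, their intracellular adaptor, did not pass (80.0 and 79.2 CPM, log2 0.01). Of 9 metalloproteinases and inhibitors that passed in both 2 were higher, Timp2 (353 and 296 CPM, log2 0.23) and Mmp16 (29.7 and 18.8 CPM, log2 0.62), and 3 were lower. Of 13 genes of hyaluronan and chondroitin sulfate that passed in both 6 were higher, among them the sulfotransferase Chst11 (48.3 and 45.5 CPM, log2 0.16; not called in fentanyl, log2 0.01) and the receptor phosphatase Ptprz1 (34.7 and 25.9 CPM, log2 0.33), and 3 were lower.

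D1 and D2 were compared again in the fentanyl libraries. There 21 members were higher and 35 lower in D1, or 74.7% of 75, beside 54.1% of all genes tested (26.9% higher and 27.2% lower); without the 6 libraries that stood apart the counts were 21 and 35. Over the 66 members that passed the filter in both pull-downs 20 were higher and 29 lower, or 74.2%, beside 54.7% of genes (28.6% and 26.1%). The water and fentanyl comparisons share no library, and 48 members were called in both, each in the same direction (20 higher and 28 lower), which is 48 of the 51 called in water and of the 56 called in fentanyl. Over the 66 these were 42 of 45 and of 49. The matching share over all genes is not given here, so this agreement is not read as particular to the members. In 14 members the libraries did not overlap, 8 with D1 above and 6 with D2 above, beside 12.2% of all genes (6.14% and 6.03%), and among the 66 in 13, 8 and 5, beside 12.3% (6.75% and 5.5%). Acan, Adamts20 and Lama3 were called in water only. Adamts10, Col17a1, Col26a1, Col5a3, Col6a2, Col6a4, Col9a2 and Lamb1 were called in fentanyl only. The fentanyl call of Col6a2 was lost without any one of 5 fentanyl libraries (D1 male replicates 4 and 6, D2 male replicate 1, D2 female replicates 2 and 3; adjusted p of 0.0507 to 0.0631), and that of Col6a4 without any one of 7 (D1 male replicates 4 and 5, D1 female replicates 2 and 3, D2 male replicate 2, D2 female replicates 3 and 6; adjusted p of 0.0516 to 0.092). With each sex taken alone, Adamts10, Col17a1 and Col9a2 were not called in females, Lamb1, Col26a1 and Col5a3 not in males, and Col6a2 and Col6a4 in neither. For none of these 11 did the difference between the comparisons itself pass by edgeR, as the interaction below shows.

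The values of the net and matrix genes in these separate libraries follow. Hapln1 had 2.31, 3.58 and 5.40 CPM in D1 fentanyl libraries and 0.376, 1.06 and 1.58 in D2 (log2 1.86 ± 0.18 SE, adjusted p = 1.73e-12). Reln had 74.5, 83.2 and 107 CPM in D1 and 29.2, 42.1 and 62.6 in D2 (log2 0.96 ± 0.10, adjusted p = 5.03e-12). Both kept D1 and D2 apart without overlap. Sparc had 6.80, 9.18 and 11.1 CPM in D1 and 83.8, 109 and 139 in D2 (log2 -3.58 ± 0.11, adjusted p = 5.30e-31), and Col25a1 46.1, 52.4 and 63.1 in D1 and 16.4, 21.9 and 24.8 in D2 (log2 1.29 ± 0.07, adjusted p = 2.25e-21). Hapln4, apart in water, overlapped in fentanyl libraries, where D1 had 15.2, 23.1 and 33.5 CPM and D2 3.47, 8.57 and 20.3 (log2 1.32 ± 0.16, adjusted p = 1.72e-09). Of the laminins, Lamb2 (log2 -3.97) was lower in every D1 library than in any D2 library, as in water. Lamc3 (log2 -4.52) passed the filter only through D2, so its direction was largely fixed. The aggrecanase Adamts5, whose ranges overlapped in water, had 1.59, 3.22 and 6.86 CPM in D1 fentanyl libraries and 0.681, 0.931 and 1.43 in D2, without overlap (log2 1.66 ± 0.18, adjusted p = 1.36e-10). Adamts8 (log2 1.69) and Adamts15 (log2 1.40) were likewise apart, and Adamts3 was higher by log2 0.95. Acan missed the threshold there (log2 0.65 ± 0.34, adjusted p = 0.0977), which it passed without D2 male replicate 3 (adjusted p = 0.0467). Tnc, which passed the filter only through D2, had a log2 difference of -0.90 ± 0.34.

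Fentanyl abstinence was then set against water within each pull-down. No member passed in D1 (0 of 68 tested) or in D2 (0 of 74) by edgeR's quasi-likelihood test, and neither did any other gene (0% of 16782 genes in D1 and 0% of 17706 in D2). DESeq2 and limma voom also called no member, and over all genes DESeq2 called 3 in D1 and 0 in D2. At an unadjusted p under 0.05 there were 1 member in D1, beside 3.81% of all genes, and 6 in D2, beside 4.42%. The fits give bounds on what could have been missed: the 95% interval lay within a 2-fold change for 64 of 68 members in D1 and for 71 of 74 in D2, and within a 1.5-fold change for 46 and 49. The median log2 change was -0.02 over the members in D1 and -0.01 in D2. A p that misses the threshold does not show that levels were alike.

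Intervals were narrow for some net genes and wider for others. In D1 the log2 change (fentanyl minus water) of Hapln1 was 0.08 (95% interval -0.19 to 0.34), that of Hapln4 -0.08 (-0.31 to 0.14), that of Tnr -0.02 (-0.22 to 0.18), that of Bcan -0.16 (-0.36 to 0.03) and that of Ncan -0.06 (-0.16 to 0.04). In D2 they were -0.24 (-0.68 to 0.19), 0.05 (-0.34 to 0.43), 0.05 (-0.08 to 0.19), -0.16 (-0.38 to 0.05) and -0.05 (-0.13 to 0.02). Acan, with far fewer reads, had -0.42 (-1.09 to 0.25) in D1 and -0.29 (-0.94 to 0.37) in D2, so a 2-fold fall in D1 was within its interval. Reln had -0.11 (-0.27 to 0.04) in D1 and 0.09 (-0.12 to 0.30) in D2, and Sparc -0.18 (-0.40 to 0.04) and -0.03 (-0.20 to 0.14). Vcan, Hapln2 and Hapln3 had intervals that spanned 0 in both pull-downs, with log2 changes of 0.00, -0.11 and -0.02 in D1 and -0.11, 0.09 and -0.13 in D2. The interval of Hapln3 ran from -0.69 to 0.65 in D1 and from -0.51 to 0.24 in D2, and that of Hapln2 from -0.53 to 0.31 in D1.

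The smallest p in D2 belonged to Tnc. It had 0.271, 0.682 and 1.79 CPM in the 12 water libraries and 0.231, 0.3999 and 0.802 in the 12 fentanyl libraries, ranges that overlapped. The log2 change was -0.84 (95% interval -1.42 to -0.26, unadjusted p = 0.00629, adjusted p = 0.998 by edgeR). In females the mean was 0.862 ± 0.388 CPM in water and 0.422 ± 0.113 in fentanyl, and in males 0.717 ± 0.559 and 0.444 ± 0.214 (SDs over 6 libraries each). Also with a small unadjusted p in D2 were Sparcl1 (log2 -0.16), Col9a2 (0.21), Col20a1 (0.38), Lama3 (0.42) and Col17a1 (0.48), which no adjusted test called. In D1, Tnc was under the filter and was not tested, with 0 to 0.357 CPM in water and 0.0769 to 0.431 in fentanyl. The member with the smallest p in D1 was Col1a2 (log2 0.39, unadjusted p = 0.0465), with 0.481, 0.956 and 1.69 CPM in water and 0.693, 1.34 and 1.88 in fentanyl. Next in D1, none of them past the threshold, were Col26a1 (log2 -0.47), Col8a1 (-0.37), Adamts13 (0.55), Adamtsl1 (0.20) and Col22a1 (0.41), and in D2 Adamts6 (-0.36) and Adamtsl1 (-0.26).

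**Figure D5:**
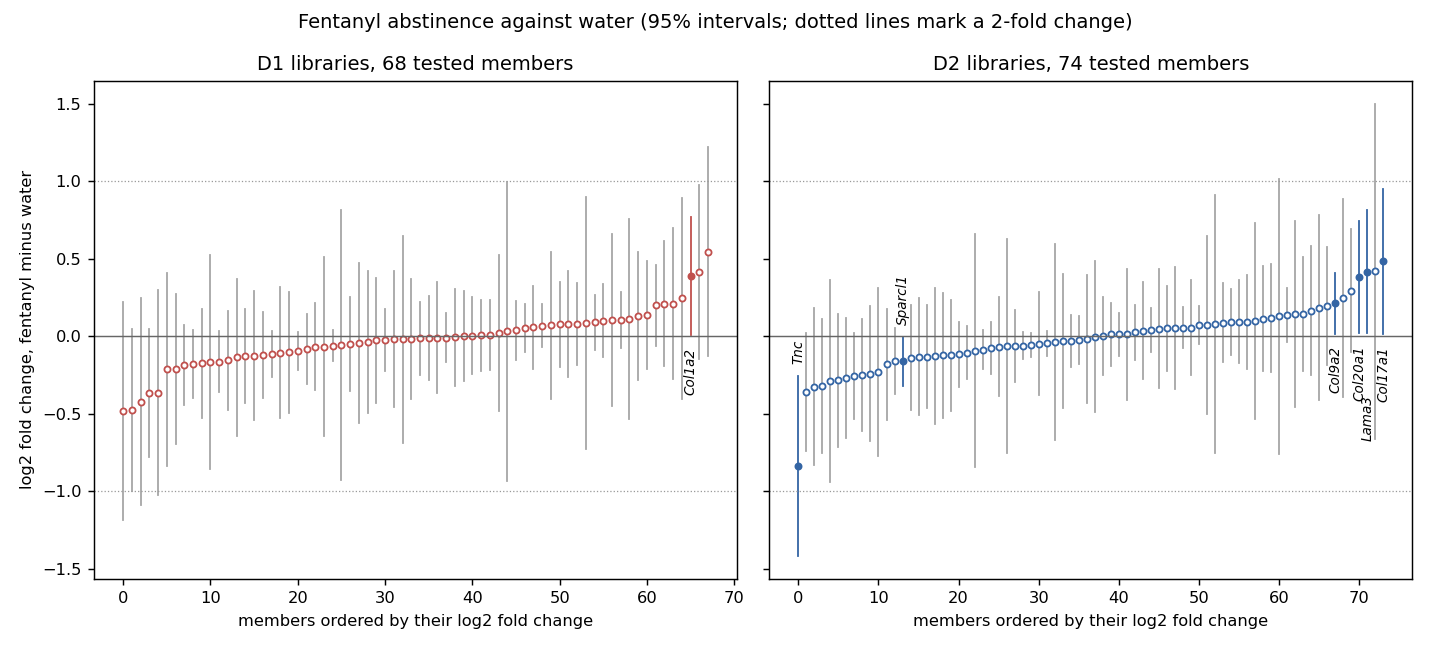
Log2 fold change, fentanyl minus water, of each tested member with its 95% interval, ordered by size, in D1 and in D2 libraries. Filled points have an unadjusted p under 0.05 (1 in D1, 6 in D2), none passed after adjustment, and dotted lines mark a 2-fold change either way.

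Whether the fentanyl change differed between D1 and D2 was tested as an interaction over all 48 libraries. None of 75 members passed by edgeR (0% of 18270 genes), by DESeq2 or by limma voom, and 4 had an unadjusted p under 0.05, beside 4.52% of all genes. These were Tnc with a difference in log2 change of 1.55 (95% interval 0.55 to 2.56, adjusted p = 0.9999 by edgeR), Adamtsl1 with 0.45, Col1a2 with 0.57 and Lama3 with -0.63. Tnc passed the filter only through D2. The D1 part of its difference rests on few reads (75 over the D1 fentanyl libraries), so its value is not read as a result. Those of next smallest p were Col26a1 (-0.60), Col17a1 (-0.71), Col6a1 (0.16) and Col11a2 (-0.63). For Reln, where D1 moved by -0.11 and D2 by 0.09, the difference was -0.21 (-0.48 to 0.06). For the members as a group 54 of 75 intervals of the difference lay within 2-fold.

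Females and males did not differ in a member past the threshold by edgeR, in D1 (0 of 68, 0.0536% of all genes called) or in D2 (0 of 74, 0.373%). At an unadjusted p under 0.05 there were 10 members in D1, beside 7.6% of all genes, and 11 in D2, beside 13.6%. DESeq2 called 2 members in D2 (Col3a1 and Col6a1), limma voom 1 (Col3a1), and neither called any in D1. Col3a1 averaged 0.588 ± 0.273 CPM in male and 1.04 ± 0.425 in female water libraries, and 0.471 ± 0.333 in male and 1.45 ± 0.513 in female fentanyl libraries (SDs, 6 libraries each), a log2 difference of 1.22 (95% interval 0.59 to 1.84, adjusted p = 0.0688). Col6a1 averaged 31.9 ± 2.89 and 35.1 ± 1.64 CPM in male and female water libraries and 30.1 ± 2.67 and 34.3 ± 1.74 in fentanyl (log2 0.16, adjusted p = 0.0902). Of the 11 D2 members with a small unadjusted p, 9 were collagens, which make up 31 of the 74 tested. The estimate was higher in females in all 11, Ncan and Sparcl1 included. The share of all genes with that direction is not given here. In D1 the smallest p belonged to Sparcl1, lower in females by estimate (log2 -0.21, unadjusted p = 0.00982, adjusted p = 0.571 by edgeR), followed by Adamts10 (0.53), Adamts5 (-0.41) and Ncan (0.12).

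The sex difference in the fentanyl change did not pass for any member by edgeR, DESeq2 or limma voom (by edgeR 0% of all genes in D1 and in D2, with unadjusted p under 0.05 in 3 members each, beside 4.02% and 8.23% of all genes). In D1 the smallest p belonged to Col6a3, with 0.494 ± 0.247 CPM in male water, 0.283 ± 0.134 in male fentanyl, 0.260 ± 0.0957 in female water and 0.542 ± 0.191 in female fentanyl (log2 1.86, adjusted p = 0.993 by edgeR). In D2 it belonged to Hapln4 (log2 0.95, adjusted p = 0.577 by edgeR), whose means were 9.56 ± 3.73 CPM in male water, 7.11 ± 2.72 in male fentanyl, 8.43 ± 2.23 in female water and 12.1 ± 4.61 in female fentanyl. The others with an unadjusted p under 0.05 were Col23a1 (log2 -0.68) and Col19a1 (-0.79) in D1 and Col5a2 (1.61) and Lamb3 (-0.32) in D2. For Col6a3 and Hapln4 the libraries of all 4 groups overlapped.

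Members that form one protein complex or neighbour each other were checked for a shared spread between libraries, as correlations of log2 CPM after removing each group's mean, over 24 libraries of a pull-down; 20 were computed and p-values come from permutation. In D2, Col1a1 and Col1a2 varied together (Pearson r = 0.684, adjusted p = 0.0122; Spearman rho = 0.744, adjusted p = 0.0048; r = 0.721 without the 2 libraries farthest out), as did Col4a1 and Col4a2 (r = 0.656, adjusted p = 0.0122; rho = 0.632, adjusted p = 0.0205; r = 0.682 without 2). In D1 those pairs had r = -0.254 and -0.15 and did not pass. Col1a1 was under the filter in D1 (a mean of 0.181 CPM in fentanyl libraries). Its correlation there rests on few reads and is not set against that in D2. In D1, Col6a1 and Col6a2 varied together (permutation, r = 0.73, adjusted p = 0.0068; rho = 0.714, adjusted p = 0.0048; r = 0.742 without 2), where D2 had r = 0.0221. None of the 4 lectican and link protein pairs passed in either pull-down, with r from 0.0573 to 0.497, and the difference between D1 and D2 in these correlations was not tested.

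Some members were too low to test. The filter removed 17 of 92: Adamts7, Adamts12, Adamts14, Adamtsl3, Col2a1, Col4a3, Col4a4, Col4a5, Col4a6, Col6a6, Col7a1, Col8a2, Col9a1, Col10a1, Col13a1, Col15a1 and Col24a1. This is the filter over all libraries; Col13a1 passed among the D2 libraries alone and is 1 of the 74 members tested there. Col7a1 had the highest mean among them, 0.234 CPM over the 24 D2 libraries. Of the 75 tested, 24 did not pass between D1 and D2 in water, and for Lamb1, Col6a2, Col9a2 and Adamts4, named after their values were seen, the 95% interval lay within 1.5-fold.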

How the data were processed

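Ribosome-bound RNA from 48 pooled nucleus accumbens samples was sequenced. The deposited files hold whole-number counts of reads per gene, not normalized; the submitters' processing notes name TopHat2 2.0.8, HTSeq and the build GRCm38, and the 5 summary lines of each file (22.9% of reads on average) were left out. Depth ran from 20211543 to 42584762 reads in genes. Genes passed edgeR's filterByExpr (count minimum 10, total minimum 15), leaving 18270 genes over all libraries, 16782 in D1 and 17706 in D2. TMM-scaled counts were fitted by group with the quasi-likelihood test of edgeR 4.0.16 (R 4.3.3), with Benjamini-Hochberg adjustment over all genes and a threshold of 0.05; the intervals are at 95%. Genes above the filter in D1 libraries alone and in D2 libraries alone were also counted apart, and libraries whose median chi-square to their group was over 2 times that of the group's other pairs were left out together as an alternative; both choices were made after seeing the data. The code was tested on simulated data. CPM uses TMM library sizes, and CPM per kb divides by exon length. DESeq2 1.42.0, limma 3.58.1, other scaling, no filter, contrasts of each sex alone within the same fit, a replicate block and leaving out each library were alternatives. The rule named every brain matrix gene, the 6 largest differences each way in each other family with a mean of at least 1 CPM, and elsewhere the 4 smallest p each way. The members, gene lists and tests were chosen with earlier results of these data known. No pair of replicates was a copy of another. Intervals cover the spread between pools.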

Additional observations from a re-analysis of the deposited data

Results flagged for a closer look

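Of 336 groups of 6 libraries (42 members), 17, or 5.06%, held a library whose gap to its nearest neighbour as a share of the group's range was above Dixon's 95% critical value for groups of 6, which chance alone passes in about 1 in 20 groups. D1 female water replicate 6 and D1 female fentanyl replicate 5, which hold 5 of these values, stood apart from their groups over all genes, and so did D1 male water replicate 3, which holds 1. In D1 male water, replicate 6 was high for Adamts20 (4.243 CPM; the others 2.31 to 2.743) and replicate 3 for Adamts8 (3.603; 1.409 to 2.196). In D1 female water, replicate 5 was low for Adamts3 (16.85; 20.39 to 22.07), and replicate 6 was high for Lamc3 (0.3315; 0 to 0.122) and Tnr (66.42; 36.74 to 40.87). In D1 male fentanyl, replicate 5 was high for Adamts5 (6.864; 2.298 to 3.792) and replicate 3 for Col16a1 (1.138; 0.7069 to 0.8071). In D1 female fentanyl, replicate 3 was high for Hapln2 (2.152; 1.102 to 1.442). Replicate 5 of that group was high for 3 members: Reln (107.3; 76.78 to 87.74), Tnr (57.41; 35.87 to 43.89) and Vcan (6.336; 3.299 to 4.335). In D2 female water, replicate 6 was low for Hapln2 (1.033; 1.943 to 2.436) and replicate 2 high for Lamb1 (38.05; 32.5 to 34.36). In D2 male water, replicate 5 was low for Vcan (4.099; 5.926 to 6.786). In D2 male fentanyl, replicate 1 was high for Lama4 (3.759; 1.578 to 1.977), and replicate 6 for Col4a1 (9.748; 6.599 to 7.736) and Vcan (6.932; 5.344 to 5.691).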

How the results depend on the processing

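None of the 51 members called in water or the 56 in fentanyl changed sign under any of 34 alternatives. Among uncalled members signs did change. Of these alternatives 24 left out a single library, and the filter in both pull-downs reused the main fit, so it could change no sign. Called members that passed the filter through a single pull-down had a largely fixed direction, so their unchanged sign is no support. Members higher in D1 in water numbered 23, 15 in males alone and 16 in females alone; leaving out single libraries gave 19 to 24 higher and 27 to 31 lower in water and 21 to 23 higher and 34 to 38 lower in fentanyl. Over all genes these fits called 9505 to 9885 in water and 9650 to 9851 in fentanyl, where females alone gave 6487 against 9884. The fentanyl comparison within D1 or D2 called 0 members and 0 genes without any one library. DESeq2 called 2 members and limma voom 1 between females and males in D2, where edgeR called 0; over all genes DESeq2 called 17 in D1 and 239 in D2 and limma voom 23 and 174, where edgeR called 9 and 66. DESeq2 also called 6 genes for the difference in fentanyl response and 4 and 8 for the sex difference in it in D1 and D2, where edgeR called none. The cause of these differences was not tested. The Sparcl1 call in water was lost with DESeq2, RLE scaling, no filter, the libraries of that treatment alone and the 6 libraries apart left out (adjusted p of 0.0505 to 0.159), and that of Acan with limma voom and no filter (0.0553 and 0.0634). In fentanyl, no filter lost Col6a2 and Col6a4 (0.0544 and 0.0524), leaving out the libraries apart lost Adamts10, Col6a2 and Tnc, and limma voom lost Tnc and called Acan (0.0445). Contrasts of 1 sex compared fewer libraries, but their filter, scaling and dispersion came from the libraries of both sexes. In them 10 of 51 water calls were lost in males and 9 in females, and 11 and 13 of 56 fentanyl calls. The water calls of Acan, Adamts2, Adamts13, Adamts20 and Adamtsl2 were lost in both. The log2 in males was -0.28 for Col18a1 and -0.51 for Col5a2 (-1.02 and -1.30 with both sexes), and that of Sparcl1 in females 0.11 (0.34). The libraries apart and the filter in both pull-downs were chosen after seeing the data. Same-numbered libraries did not vary together (72 pairs, r from -0.208 to 0.141), and the fit with the replicate block gave 23 higher and 28 lower members in water and 21 and 35 in fentanyl. Members under about 1 CPM rest on few reads.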
